A study of Mus musculus with 22 samples.

Results

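The genes described here are the 7 that the series' rule groups as red cell RNA: Hbb-bs, Hbb-bt, Hba-a1, Hba-a2, Alas2, Bpgm, and Fech, of 32858 genes in the table of counts. They were chosen by their counts over all 4 groups, as near loss of reads with cisplatin, so their values in any comparison with or among cisplatin-treated mice are a description and carry no test. Kidneys of 22 male C57Bl6/J mice, 8 to 10 weeks old, gave 1 RNA-Seq library each, and the counts are reads per gene as deposited. The Vehicle group (5 mice) received DMSO and cremophor in saline, and the KW6002 group (6 mice) received istradefylline, an adenosine receptor antagonist, intraperitoneally at 3 mg/kg each day from day -5 to day 7. The Cisplatin group (5 mice) received 6 daily injections of the platinum drug at 3 mg/kg, and the Cisplatin plus KW6002 group (6 mice) received both agents. Kidneys were harvested 72 hours after the last cisplatin injection, and blood had been drawn from the eye before the mice were killed. Whether these kidneys were perfused is not given in the sources used here, so the RNA of red cells held in their vessels may be part of each sample.

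Totals ran from 26471762 to 40510754 counts per library, and 10 of 10 kidney marker genes were tested, none at 0 in any group. Their summed level was 19744 to 23506 CPM without cisplatin and 4082 to 12433 CPM with it, and the part of this shift in the results was not tested. The mice carry numbers in the 300s (3 Vehicle and 3 KW6002 mice) or in the 500s (2 Vehicle mice, 3 KW6002 mice, and all mice given cisplatin). What these number series stand for is not given in the sources used here, and values within the 500s are given beside each result that they touch. CPM stands for counts per 1000000 counts of the library after trimmed mean of M values (TMM) scaling. Nothing in the labels beyond 1 library per mouse describes independent repeats, so p-values measure the spread between mice of 1 experiment.

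Red cells lose their nucleus as they mature, and reticulocytes, the youngest cells in the circulation, still hold messenger RNA, most of it for globin. Hemoglobin joins alpha chains, encoded by Hba-a1 and Hba-a2, with beta chains, encoded in C57BL/6 mice by Hbb-bs and Hbb-bt, and each chain carries a heme. Alas2 encodes the erythroid form of the enzyme that starts heme synthesis, Fech encodes ferrochelatase, which inserts iron at the end of that path in nearly all cells, and Bpgm encodes the enzyme that makes 2,3-bisphosphoglycerate, which lowers the affinity of hemoglobin for oxygen. The kidney is also the main source of erythropoietin, the hormone that drives red cell production.

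The label of near loss held for 5 of the 7 genes. The 4 globin genes and Alas2 were at or close to 0 reads in every kidney from cisplatin-treated mice. Bpgm and Fech had CPM of similar size in all 4 groups, with the small differences given below. The text below therefore treats the globins and Alas2 apart from Bpgm and Fech.

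The promoter sequences of 5 genes are shown because 4 of them moved together and the fifth, Bpgm, did not. They are the 250 bases before the RefSeq start of each gene in GRCm38, read 5′ to 3′ on the strand of the gene, and 6 of the 7 genes were matched in that table. Capitals mark matches, on either strand, to a GATA motif (GATA with A or T before it and A or G after it) or to CACCC, letters of the kind bound by the erythroid factors GATA1 and KLF1. Hbb-bs lies at chr7:103827929-103828178 (minus strand), Hbb-bt at chr7:103813924-103814173 (minus strand), Hba-a1 at chr11:32283422-32283671 (plus strand), Alas2 at chrX:150547167-150547416 (plus strand), and Bpgm at chr6:34476106-34476355 (plus strand).
Hbb-bs: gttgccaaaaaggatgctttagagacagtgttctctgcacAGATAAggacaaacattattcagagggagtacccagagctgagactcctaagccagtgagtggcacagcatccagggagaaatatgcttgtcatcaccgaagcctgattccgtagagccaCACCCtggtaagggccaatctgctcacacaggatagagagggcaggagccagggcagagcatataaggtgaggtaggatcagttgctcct
Hbb-bt: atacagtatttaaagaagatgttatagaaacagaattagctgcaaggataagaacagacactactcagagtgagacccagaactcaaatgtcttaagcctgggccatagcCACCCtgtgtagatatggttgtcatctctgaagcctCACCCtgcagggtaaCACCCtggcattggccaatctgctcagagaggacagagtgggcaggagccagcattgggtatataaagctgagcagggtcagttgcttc
Hba-a1: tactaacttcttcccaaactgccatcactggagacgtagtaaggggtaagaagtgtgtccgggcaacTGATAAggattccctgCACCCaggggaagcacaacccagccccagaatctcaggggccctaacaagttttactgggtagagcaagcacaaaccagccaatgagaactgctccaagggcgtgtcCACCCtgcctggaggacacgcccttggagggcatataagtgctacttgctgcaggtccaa
Alas2: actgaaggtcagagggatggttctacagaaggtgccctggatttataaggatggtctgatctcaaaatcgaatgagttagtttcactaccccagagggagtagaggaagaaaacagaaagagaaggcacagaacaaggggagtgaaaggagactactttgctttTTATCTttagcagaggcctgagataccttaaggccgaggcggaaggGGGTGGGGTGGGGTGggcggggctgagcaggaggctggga
Bpgm: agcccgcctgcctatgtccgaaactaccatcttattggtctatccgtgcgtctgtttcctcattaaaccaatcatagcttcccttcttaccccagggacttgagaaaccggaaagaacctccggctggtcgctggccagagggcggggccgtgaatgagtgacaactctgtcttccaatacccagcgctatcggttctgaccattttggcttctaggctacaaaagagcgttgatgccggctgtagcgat

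The Hbb-bs window held 1 GATA match, 210 bases before the start, and 1 CACCC match at 90 bases. The Hbb-bt window held no GATA match and 3 CACCC matches, of which the nearest lay at 89 bases. Hba-a1 had a GATA match at 183 bases and CACCC matches at 167 and 60 bases, and its window shared an unbroken run of 247 of 250 bases with that of Hba-a2. The Alas2 window held a GATA match on the opposite strand at 86 bases and 3 CACCC matches on the opposite strand, at 40, 35, and 30 bases, which adjoin in 1 run of capitals. The Bpgm window held neither motif. Of 32851 promoters of the same length, 26.5% held a GATA match, 52.0% held CACCC, and 11.8% held both, so that these matches describe the windows and are not evidence of binding.

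All 7 genes passed the filter on low counts, the globins and Alas2 only through the groups in which they were high. In GENCODE M21 the alpha globin genes lie at 32283511 to 32284465 (Hba-a1) and 32296489 to 32297298 (Hba-a2) of chromosome 11, and Hbb-bt and Hbb-bs lie at 103812524 to 103813996 and 103826534 to 103828096 of chromosome 7. Uniquely aligned reads were kept by the authors, which removes much of the signal of near-identical globin genes. Of the 50-base stretches in their annotated transcripts, 72.3% of those of Hba-a1 and 89.3% of those of Hba-a2 also occur in the other alpha gene. Likewise, 53.2% of those of Hbb-bs and 58.3% of those of Hbb-bt occur in the other beta gene. The counts are thus a lower reading of globin RNA, and the split within each pair is uncertain.

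Hbb-bs was the most abundant of the 7 genes per length in mice without cisplatin, at 151 CPM per kilobase of exon in the Vehicle group. Hba-a1 (37.9), Hbb-bt (29.2), and Hba-a2 (28.1) followed on that scale, with Bpgm at 14.7, Fech at 12.6, and Alas2 at 3.64 CPM per kilobase. Per 1000 stretches of 50 bases that occur in no other gene's transcripts, the order of the globins turned, to Hbb-bs at 346.4 CPM, Hba-a2 at 284, Hba-a1 at 146, and Hbb-bt at 75.3, so that the order within and between the pairs is uncertain below Hbb-bs. Globin reads summed over the 4 genes made up 0.00575% to 0.0366% of a Vehicle library and 0.00655% to 0.0320% of a KW6002 library.

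Hbb-bs, the main beta chain gene, was at 176, 241, 80.8, 40.6, and 41.6 CPM in the 5 Vehicle kidneys. In the KW6002 group it ranged from 44.8 to 212 CPM, with a median of 83.8 (n = 6). The first 3 Vehicle values belong to mice numbered in the 300s, and the levels of the 300s and 500s did not overlap among the 11 mice without cisplatin.

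In the Cisplatin group, Hbb-bs was at 3, 5, 1, 3, and 3 reads per library. In the Cisplatin plus KW6002 group, it ranged from 1 to 9 reads, with 30 reads in all 6 libraries together. No kidney from a cisplatin-treated mouse came near the lowest kidney of the other groups, which had 1153 reads.

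The other globin genes followed. Hbb-bt, the second beta chain gene, was at 29.6, 45.5, 14.5, 5.88, and 7.29 CPM in the Vehicle group, and at 6.34 to 38.6 CPM in the KW6002 group (median 15.0). It had 0 reads in 4 of 5 Cisplatin libraries and in 4 of 6 Cisplatin plus KW6002 libraries, where the other libraries held 2 reads each.

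Hba-a1 was at 44.6, 62.8, 23.3, 9.65, and 13.4 CPM in the Vehicle group and at 11.9 to 52.8 CPM in the KW6002 group (median 21.8). Its reads in the Cisplatin libraries were 1, 1, 0, 0, and 2, and those in the co-treated libraries ran from 0 to 4. Hba-a2 was at 27.6, 39.4, 12.9, 6.06, and 7.84 CPM in the Vehicle group, at 6.83 to 34.9 CPM in the KW6002 group (median 12.7), and at 0 to 3 reads in each cisplatin-treated library. For all 4 globins the libraries with and without cisplatin did not overlap, which is a description of genes chosen for low counts with cisplatin.

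Alas2 showed the same split at a lower level. It was at 12.5, 19.2, 5.44, 3.70, and 2.83 CPM in the Vehicle group and at 3.76 to 14.1 CPM in the KW6002 group (median 5.73). The Cisplatin libraries held 1, 0, 0, 2, and 0 Alas2 reads, and the 6 Cisplatin plus KW6002 libraries held 1, 3, 5, 7, 9, and 9.

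**Figure D1:**
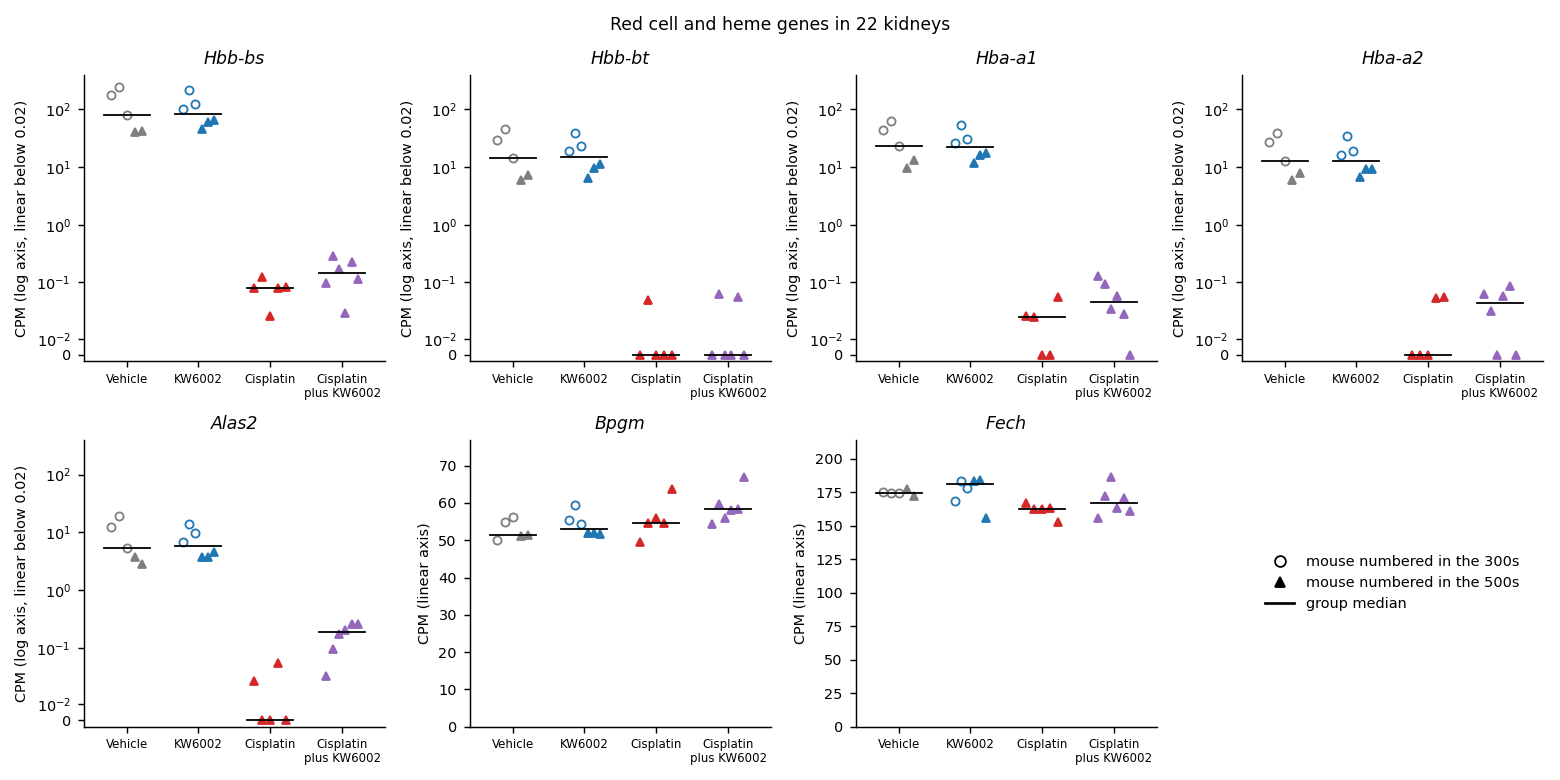
CPM of the 7 genes in each of 22 kidneys, by group, with open circles for mice numbered in the 300s, filled triangles for mice numbered in the 500s, and a line at the group median. The globins and Alas2 (log axis, linear below 0.02 CPM) drop to 0 to 0.282 CPM with cisplatin, and Bpgm and Fech (linear axis from 0) stay between 49.5 and 186 CPM.

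As a description, the pooled ratio of Vehicle to Cisplatin was 1408 for Hbb-bs (95% interval 853 to 2516), 1401 for Hba-a1 (547 to 5144), 853 for Hba-a2 (333 to 3133), and 527 for Alas2 (180 to 2558). These intervals are exact binomial intervals and cover counting error only. For Hbb-bt, with 2 reads in the Cisplatin group, the ratio was 1861 (515 to 15373). Within the 500s the ratios were lower, at 514 (311 to 920) for Hbb-bs and 203 (68.4 to 993) for Alas2. In bulk kidney, fewer reticulocytes in the tissue and less RNA per reticulocyte cannot be told apart.

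Cisplatin plus KW6002 against KW6002 gives the same description in mice that received KW6002, and carries no test for these genes since they were chosen for low counts with cisplatin. Of all 17131 genes tested, 28.8% passed as lower in edgeR's quasi-likelihood test (adjusted p below 0.05), as did 5 of the 7 (71.4%), from which nothing is read.

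The fitted log2 difference of Hbb-bs was -9.35 (SE 0.685), which is a value that depends on the small prior count. The pooled ratio of KW6002 to Cisplatin plus KW6002 was 712 (95% counting interval 499 to 1055), and 375 (262 to 556) with the KW6002 mice of the 500s alone. For Alas2 the log2 difference was -5.36 (SE 0.567), with a pooled ratio of 43.9 (31.3 to 63.7) over all libraries and 23.4 (16.4 to 34.4) within the 500s. The interval of the Alas2 ratio lay below that of every globin, of which the lowest bound was 213 for Hba-a2.

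The log2 difference was -9.54 for Hbb-bt, -8.76 for Hba-a1, and -8.49 for Hba-a2 in the same fit. With the number series as a covariate the 5 differences ran from -8.42 to -4.40, and with only mice of the 500s from -8.56 to -4.53. Every KW6002 library was above every co-treated library for these 5 genes. The genes were chosen for low counts with cisplatin, and the share of all genes with such separation was not counted, so nothing is read from it.

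Bpgm was at 50.03, 55.0, 56.3, 51.2, and 51.3 CPM in the Vehicle group and at 49.5, 54.7, 56.0, 54.5, and 63.6 CPM in the Cisplatin group. It ranged from 51.8 to 59.4 CPM with KW6002 (median 53.2) and from 54.3 to 66.9 CPM with both agents (median 58.3). The difference of Cisplatin plus KW6002 from KW6002 was 0.12 on the log2 scale (95% interval 0.00386 to 0.239), and the ranges overlapped. Within the 500s these ranges did not overlap, with the KW6002 kidneys at 51.77 to 51.87 CPM, which is a description. It was 0.26 with scaling by library size only, 0.17 with the number series as a covariate, and 0.18 within the 500s, and without Cisplatin plus KW6002 replicate 6 it was 0.08.

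Fech was at 175, 174, 174, 177, and 172 CPM in the Vehicle group and at 167, 163, 162, 163, and 153 CPM in the Cisplatin group. With KW6002 it ranged from 156 to 184 CPM (median 181), and with both agents from 156 to 186 CPM (median 167). The Vehicle and Cisplatin ranges did not overlap, and the share of all genes with such separation was not counted, so nothing is read from it. The KW6002 and co-treated ranges overlapped, and the difference between those groups was -0.06 on the log2 scale (95% interval -0.158 to 0.0328). The sign of that difference turned to 0.08 with scaling by library size only. Fech lies at 64452914 to 64490251 of chromosome 18 and Bpgm at 34476207 to 34505613 of chromosome 6, and 3.02% and 0 of their 50-base stretches occur in another gene's transcripts.

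None of the 7 genes passed the test in KW6002 against Vehicle. Of 17131 genes, 0.0175% passed an adjusted p below 0.05 in edgeR in this comparison, and 0 of the 7 did so in edgeR or in DESeq2. At an unadjusted p under 0.05 in edgeR, 11.3% of all genes passed and 0 of the 7 did. The share of all genes in DESeq2 was not counted, and nothing about the 7 genes is read from these counts. The log2 differences ran from -0.27 for Alas2 (95% interval -1.11 to 0.566) to 0.04 for Bpgm (-0.0861 to 0.162), so that a change of the globins up to about the size of those intervals could not be told from none. For all 4 globins and Alas2 the sign was negative over all mice and positive within the 500s, where Hbb-bs was higher by 0.47 on the log2 scale (adjusted p = 0.32 in edgeR), and without Vehicle replicate 2, where it was higher by 0.26.

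Among cisplatin-treated mice, adding KW6002 left the globins at a handful of reads. The genes were picked for low values in these libraries, so no test is given for them. Of all genes, 55.8% passed an adjusted p below 0.05 in this comparison and 0 of the 7 did, from which nothing is read. Hbb-bs had 30 reads with both agents and 15 with cisplatin alone, a pooled ratio of 1.91 (95% counting interval 0.994 to 3.81).

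Alas2 was the exception in size. Its pooled ratio of Cisplatin plus KW6002 to Cisplatin was 10.8 (95% counting interval 3.40 to 55.0), from 34 and 3 reads, and the ranges of the groups overlapped through 1 co-treated library, which held 1 read. The fitted difference was 3.15 on the log2 scale (SE 1.39), and with each library of these groups left out in turn it ran from 2.86 to 4.06. Alas2 passed the filter through the groups without cisplatin, and with these groups alone it did not.

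The KW6002 effect in cisplatin-treated mice minus that in the other mice was 3.42 for Alas2 (SE 1.45) on the log2 scale and 0.04 to 1.49 for the other 6 genes. Of all genes, 42.7% passed an adjusted p below 0.05 there and 0 of the 7 did, from which nothing is read for the same reason.

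The mix of the few remaining reads is likewise a description. Alas2 made up 5.90% to 8.35% of the sum of Alas2 and Hbb-bs reads in each of the 11 mice without cisplatin (median 6.53%). It made up 53.1% of that sum in the co-treated group (34 of 64 reads in the 6 libraries together, exact 95% interval 40.2% to 65.7%), and 16.7% in the Cisplatin group (3 of 18, 3.58% to 41.4%). These intervals pool the reads of several mice and cover counting error only, not the spread between mice. Co-treated replicate 1, for example, held 1 Alas2 and 3 Hbb-bs reads, and replicate 4 held 7 and 1. The plot of Alas2 against Hbb-bs reads shows the 11 mice without cisplatin along 1 line and 4 of the 6 co-treated kidneys with at least as many Alas2 as Hbb-bs reads.

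**Figure D2:**
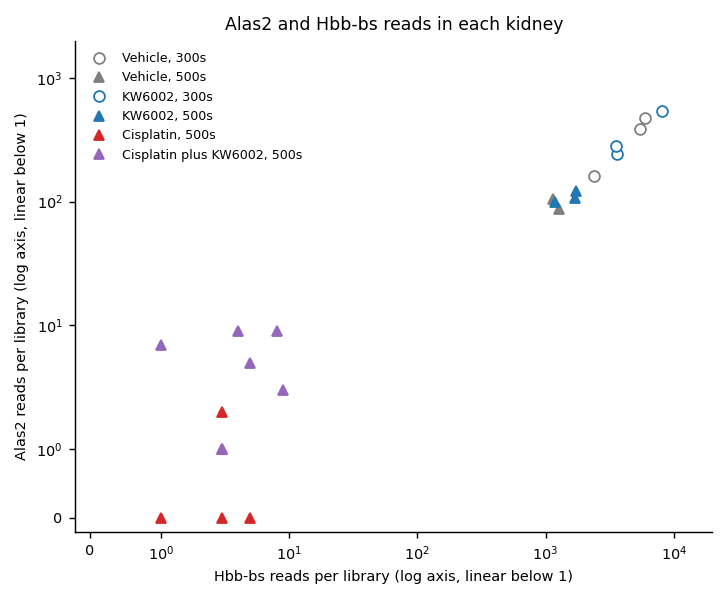
Reads of Alas2 against reads of Hbb-bs in each of 22 libraries (both axes logarithmic, linear below 1 read), by group and number series. Libraries without cisplatin hold 87 to 539 Alas2 reads and 1153 to 8113 Hbb-bs reads, and cisplatin-treated libraries hold at most 9 of either.

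The Alas2 gene (150547375 to 150570638 of chromosome X) overlaps Apex2, a DNA repair endonuclease gene on the opposite strand, and 11.5% of the 50-base stretches of its transcripts occur in a transcript of Apex2 or of Mir3620 in reverse. Whether strand was used in counting is not given in the sources used here, and without it reads of the overlap cannot be assigned. Apex2, looked up after these values were seen, was at a mean of 12.5 ± 1.53 CPM (SD, n = 6) in the co-treated group and 8.25 ± 0.655 CPM (SD, n = 5) in the Cisplatin group. Apex2 was thus higher with both agents than with cisplatin alone by 0.60 on the log2 scale (adjusted p = 1.7e-05 in edgeR). It was at 12.6 ± 1.93 CPM (SD, n = 5) in the Vehicle group and 13.2 ± 0.781 CPM (SD, n = 6) in the KW6002 group, so the Cisplatin group was the lowest. The part of Apex2 in the Alas2 reads was not tested.

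The globins and Alas2 varied together among mice without cisplatin. Within the 6 mice of the 300s, log2 CPM of Hbb-bs correlated with that of Hbb-bt (r = 0.996), Hba-a1 (r = 0.992), Hba-a2 (r = 0.998), and Alas2 (r = 0.986), and the ranks were the same for all 5 genes (rho = 1.0). The exact permutation p was 0.0014 for Hbb-bt, Hba-a2, and Alas2 and 0.0028 for Hba-a1 (two-sided, n = 6), with Benjamini-Hochberg values of 0.0028 and 0.0042 over 6 relations. For rho the exact permutation p was 0.0028 for each (n = 6, adjusted 0.0042).

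No relation of Hbb-bs to Bpgm (r = -0.04, rho = -0.143, exact permutation p = 0.95 and 0.80) or to Fech (r = 0.499, rho = 0.543, exact permutation p = 0.33 and 0.30) was resolved in these 6 mice. They are too few to tell a moderate relation from none. Without the 2 mice farthest from the median, the r of Hbb-bs with the other globins and Alas2 stayed between 0.971 and 0.996 over 4 mice. In the same 4 mice it was 0.806 with Fech and 0.126 with Bpgm. No pooled value is given because the number series stand apart, and the 5 mice of the 500s are too few for a value of their own.

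The difference between the number series was itself large for these genes. In a fit with the series as a term, mice of the 300s were higher by 1.64 on the log2 scale for Hbb-bs (adjusted p = 5.6e-05), 1.82 for Hbb-bt, 1.54 for Hba-a1, 1.68 for Hba-a2, and 1.59 for Alas2 (adjusted p = 5.9e-04, the highest of the 5). Of all genes, 11.5% passed an adjusted p below 0.05 there, as did the globins and Alas2, from which nothing is read. Bpgm (0.10, adjusted p = 0.29) and Fech (0.01, adjusted p = 0.92) did not.

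The genes whose log2 CPM was most like the mean of the 4 globins and Alas2 over the 11 mice without cisplatin were Il4ra (r = 0.949), Nuak2 (r = 0.948), Smim3 (r = 0.948), Slc19a3 (r = 0.938), and Uhrf1 (r = 0.936), followed by Slc10a7, Hyal2, Hadh, Ikzf4, and B3gntl1 (r = 0.930 to 0.924). The likeness was lower when each series was centred on its own mean (r = 0.669 to 0.824 for these 10 genes, and 0.943 for Alas2 itself). Over all 22 libraries, in which cisplatin-treated and other mice stand apart, the closest were Syn2 (r = 0.985), Timp3 (r = 0.984), Dnah5 (r = 0.981), Dnah9 (r = 0.981), and Arl6ip1 (r = 0.981), then Fhit, Aldh3a2, Cpq, Cyp4b1, and Ipcef1. No gene of the red cell lists was among either set of 10.

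Markers of other blood cells stand beside these results, called at an adjusted p below 0.01 and a log2 change beyond 1, which 6.7% of all genes passed as lower and 5.19% as higher in Cisplatin plus KW6002 against KW6002. Summed over 13 neutrophil markers, the level was 6.26 to 13.6 CPM with KW6002 and 5.36 to 9.56 CPM with both agents, and 0 of 8 tested markers were called. Summed over 14 platelet markers, it was 12.7 to 16.0 and 14.6 to 17.8 CPM, and 1 of 4 tested was lower (Nrgn, -1.07). Summed over 10 lymphocyte markers, it was 9.99 to 34.0 and 3.86 to 16.9 CPM, and 4 of 9 tested were lower (Cd3e, Cd2, Cd3g, and Cd22). Summed over 10 macrophage markers, it was 187 to 553 and 165 to 272 CPM, and of 10 tested Adgre1 (-1.47) and Csf1r (-1.13) were lower and Cd14 (1.146) was higher. Mpo among the neutrophil markers and Gp6 among the platelet markers had 0 reads in the co-treated group, as Camp did among the neutrophil markers in the KW6002 group. The part of a change in the blood held in the tissue was not tested.

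Other genes of the red cell pathway were read from lists of 94 genes, of which 77 were tested. They were called by the same thresholds. In Cisplatin plus KW6002 against KW6002, 5 of 77 were lower (6.49%, beside 6.7% of all genes), 3 were higher (3.90%, beside 5.19% of all genes), and 69 were not called. These shares are near those of all genes, and the median log2 change of the 77 was 0.01, beside -0.003 for all genes.

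The largest change was that of Epo, the gene of erythropoietin. It was at 1.33, 1.24, 0.403, 1.02, and 1.04 CPM in the Vehicle group and at 0.449 to 1.85 CPM in the KW6002 group (median 0.936). The Cisplatin libraries held 1 Epo read in all, and the co-treated libraries held 0 to 2 each, 4 in all.

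No cisplatin-treated library overlapped one without cisplatin. Epo fell by 5.44 on the log2 scale (SE 0.549, adjusted p = 2.0e-08 in edgeR) in co-treated against KW6002 mice, with a pooled ratio of 50.4 (95% counting interval 19.4 to 187). Like the globins, Epo passed the filter only through the groups without cisplatin. With so few reads after cisplatin, the fitted size depends on the small prior count. Among mice without cisplatin, Epo spanned 0.403 to 1.33 CPM in the 300s and 0.728 to 1.85 CPM in the 500s, which overlap, unlike the globins. The other 10 genes of the oxygen sensing list were not called, among them Epas1 and Hif1a (0.02 and 0.24 on the log2 scale), which encode hypoxia-inducible factors.

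Of the 7 enzymes of heme synthesis that all cells share, 1 rose and 1 fell. Alas1, the housekeeping counterpart of Alas2, was at 161, 134, 179, 161, and 155 CPM in the Vehicle group and at 352, 506, 423, 432, and 455 CPM in the Cisplatin group. It ranged from 152 to 199 CPM with KW6002 and from 438 to 561 CPM with both agents, and rose by 1.54 on the log2 scale (SE 0.0893, adjusted p = 2.7e-12).

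Uros, uroporphyrinogen synthase, was at 22.5, 22.9, 26.6, 23.1, and 23.2 CPM with vehicle and at 4.85, 5.30, 5.86, 5.56, and 6.14 CPM with cisplatin. With KW6002 it ranged from 20.9 to 25.7 CPM, and with both agents from 8.12 to 11.3 CPM. It fell by 1.34 on the log2 scale (SE 0.0778, adjusted p = 2.8e-12), and the 4 groups fell into 3 levels that did not overlap. Alas1 and Alas2, which catalyse the same step, thus lay on opposite sides of 0, and the remaining 5 enzymes lay between -0.33 and 0.12. None of the 8 genes of mitochondrial heme and iron import was called.

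**Figure D3:**
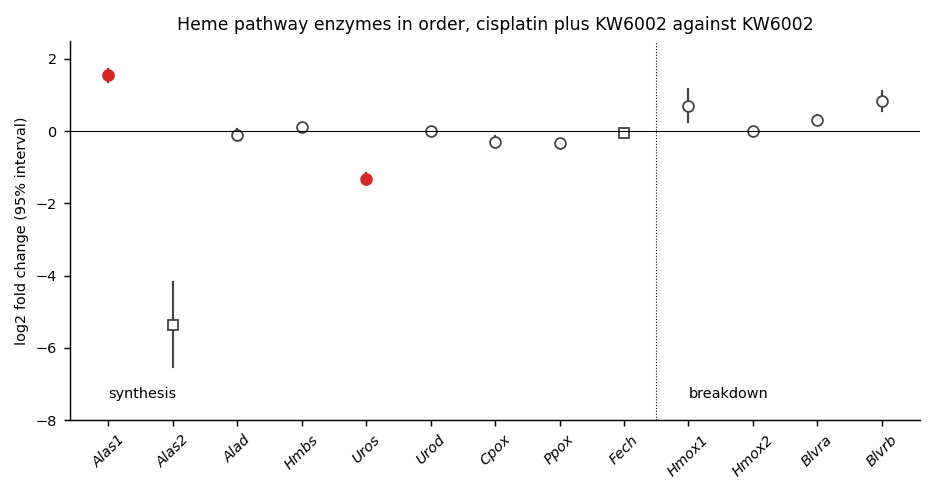
Log2 fold change (points) with its 95% interval (bars) in Cisplatin plus KW6002 against KW6002 for the enzymes of heme synthesis, in order, and of heme breakdown. Filled points passed an adjusted p below 0.01 and a change beyond 1 (Alas1 at 1.54 and Uros at -1.34), and squares mark Alas2 (-5.36) and Fech (-0.06), shown with no test.

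No other tested gene of the erythroid lists fell as far as the globins and Alas2. Of the 14 tested genes of the red cell membrane and skeleton, Ank1, which encodes ankyrin, fell by 1.66 (adjusted p = 0.0024) and Kel, a blood group antigen gene, rose by 1.77 (adjusted p = 0.0016), both at under 1 CPM in every library. The ranges of Ank1 overlapped, and within the 500s its change was -1.17 and did not pass (adjusted p = 0.051). Epb41 and Dmtn, the members of the list with the highest levels, were at 0.52 and -0.33 and were not called.

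Of the 15 tested genes of reticulocyte cytoplasm and maturation, 1 fell and 1 rose past the thresholds, and the median log2 change was -0.18. The gene that rose was Isg20, by 1.28 (adjusted p = 1.4e-05). With no size threshold and a cutoff of 0.05 for the adjusted p, 8 of the 15 fell and 2 rose. By that rule 28.8% of all genes fell in this comparison, and the share that rose was not counted. Gpx1 and Cat, antioxidant genes abundant in kidney, were at -0.29 and -0.25 and were not called. Pgam2, a phosphoglycerate mutase gene, was the only call among 7 genes of lower glycolysis (-1.06, adjusted p = 8.5e-08). None of 5 erythroid factor and receptor genes, 8 genes of heme breakdown and scavenging, or 2 other globins was called.

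**Figure D4:**
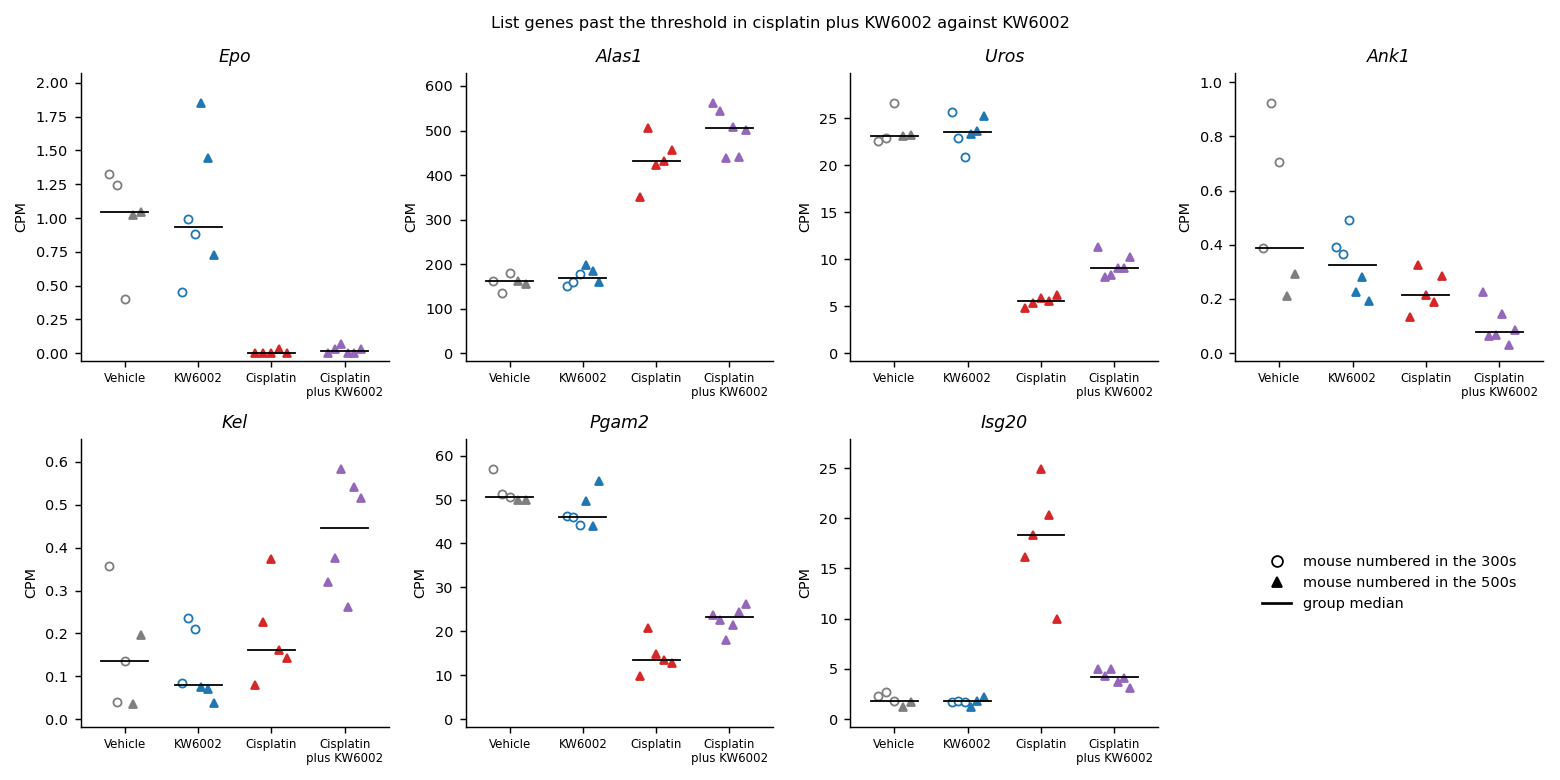
CPM of 7 list genes called in Cisplatin plus KW6002 against KW6002, in each kidney, with open circles for the 300s, triangles for the 500s, and a line at the median. Epo drops to at most 0.0686 CPM with cisplatin, Alas1 rises above 351 CPM, and Uros falls into 3 separate levels.

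In Cisplatin against Vehicle, 7 of the 77 list genes were lower (9.09%, beside 12.1% of all genes) and 9 were higher (11.7%, beside 12.1% of all genes). Epo fell by 6.78 (adjusted p = 9.0e-09), a size that likewise depends on the small prior count. Uros fell by 2.10 and Pgam2 by 1.85, while Alas1 rose by 1.45 and Isg20 by 3.22. Dmtn, not called in Cisplatin plus KW6002 against KW6002, was called lower here. Its mean was 174 ± 17.5 CPM with vehicle and 76.1 ± 6.34 CPM with cisplatin (SD, n = 5 each). Slc4a1, which encodes the anion exchanger of the red cell membrane and also of kidney intercalated cells, fell by 2.91 (adjusted p = 4.3e-10) and was named after its values were seen. It stood at 62.8 ± 13.3 CPM with vehicle and 8.39 ± 4.68 CPM with cisplatin (SD, n = 5 each), and at 36.3 ± 7.65 CPM with both agents (SD, n = 6), a pattern unlike that of the globins.

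Of the listed red cell genes, 17 were below the filter, and those named here were chosen after the counts were seen. Trim10 had 39 reads over the 11 libraries without cisplatin and 10 over the 11 with it. Gata1, the gene of an erythroid transcription factor, had 4 and 1, and Rhag, which encodes a red cell membrane protein, had 1 and 0, so that these genes were hardly detectable at this depth in any group. Car1 (14 and 12 reads) and Nfe2 (54 and 48 reads) had similar totals with and without cisplatin.

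**Figure D5:**
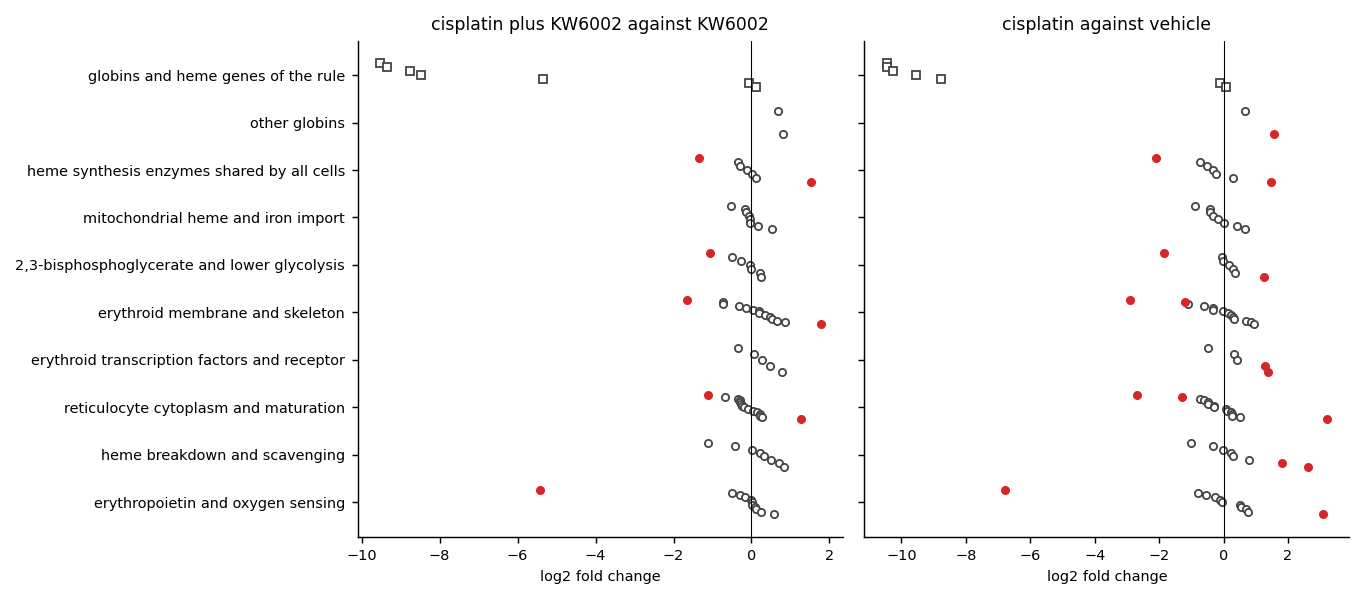
Log2 fold change of every tested gene of the red cell lists in Cisplatin plus KW6002 against KW6002 (left) and Cisplatin against Vehicle (right), 1 point a gene, filled where called. Squares mark the 7 genes of the rule, shown with no test, and apart from Epo no list gene lies beyond -3.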

How the data were processed

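Per the paper's methods, the authors prepared stranded mRNA libraries from whole kidney, sequenced single reads of 50 bases, aligned them with STAR to mm10, kept uniquely aligned reads, and counted them per Ensembl gene with HTSeq in union mode. The submitters' processing notes name bcl2fastq 2.17.1.14 and HTSeq 0.6.1p1. The deposited values are counts, whole reads per gene and library, not normalized, and 66 columns without name or value were not used. Each mouse gave 1 library, and groups came from the sample labels.

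Counts were analysed with edgeR 4.0.16 (R 4.3.3): filterByExpr by group (17131 genes kept, with 99.9% of counts, and 15727 removed), TMM factors, 1 mean per group over all 22 libraries, the quasi-likelihood test, and adjustment over all genes tested (Benjamini-Hochberg). Members were read at an adjusted p below 0.05, and list genes at 0.01 with a log2 change beyond 1. No test is given for members in comparisons with cisplatin, for which they were chosen, or between the number series. Correlations used log2 CPM with a prior count of 2. Symbols, positions, and transcripts came from GENCODE M21, and promoters from RefSeq (GRCm38). Fech had no promoter entry. Some listed genes enter the counts and are not reported here by name. Steps were tested on simulated data. Named genes are the members, up to 4 called genes a list in Cisplatin plus KW6002 against KW6002, up to 2 uncalled genes a list, and the 10 genes nearest by r. The members, lists, and tests were chosen with earlier results of these data known. Alternatives were DESeq2 1.42.0, other scalings, no filter, fits of the compared groups, a replicate block, the number series, other call rules, and each library left out.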

Additional observations from a re-analysis of the deposited data

Results flagged for a closer look

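In 4 of 56 groups of libraries tested, over the 7 members and 7 called list genes, 1 library stood apart from the rest of its group by Dixon's criterion, which chance alone gives in about 1 of 20 groups. Hbb-bt in Cisplatin replicate 2 (2 reads, 0.0502 CPM) and Epo in Cisplatin replicate 4 (1 read, 0.0268 CPM) were the only libraries above 0 in their group, so that the gap was 1.0 of the range for each. Uros was high in Vehicle replicate 3, at 26.6 CPM with the next library at 23.2 (0.837 of the range), and Pgam2 in Vehicle replicate 1, at 56.9 CPM with the next at 51.2 (0.819 of the range).

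The effect of KW6002 differed between mice with and without cisplatin for 3 of the 7 list genes in edgeR's test of the difference (adjusted p below 0.05). Of all genes, 42.7% passed that test, a share near that of the list genes, so nothing is read from the count. On the log2 scale the effect with cisplatin was greater by 0.76 for Uros (adjusted p = 1.8e-05) and 0.79 for Pgam2 (adjusted p = 8.8e-04), and for Isg20 the difference was -1.94 (adjusted p = 2.0e-05).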

How the results depend on the processing

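The members were chosen for near loss with cisplatin, so counts of them in comparisons with cisplatin support nothing. In Cisplatin plus KW6002 against KW6002, 5 members were lower under every alternative run. In the comparison of Cisplatin plus KW6002 with Cisplatin the count rose from 0 to 1 member with DESeq2, the number series as a covariate, and the 500s alone, and was 0 to 1 with each library left out (Bpgm, 0.14, without Cisplatin replicate 5). The difference of KW6002 effects gave 1 in place of 0 with the same 3 alternatives and 0 to 1 with a library left out. With the groups compared alone, only 2 members passed the filter in that comparison. The lower list genes in Cisplatin plus KW6002 against KW6002 numbered 3 in place of 5 with library size scaling, the number series, or the 500s. With an adjusted p below 0.05 and no size threshold, 25 were lower and 22 higher, where 28.8% of all genes were lower. In Cisplatin against Vehicle that rule gave 29 lower and 30 higher. The other shares of all genes by that rule were not counted, so nothing is read from these counts. Leaving out libraries gave 4 to 5 lower and 3 higher, and 7 to 8 lower and 9 to 11 higher. Values that changed sign, none past the threshold on either side, were Fech at 0.0824 (Cisplatin plus KW6002 against KW6002), -0.00346 (against Cisplatin), and -0.0223 (difference), and Bpgm at -0.0286 (difference), all with library size scaling. In KW6002 against Vehicle they were Hbb-bs at 0.0944, Hbb-bt at 0.0891, and Hba-a1 at 0.0143 with the number series, and within the 500s Hbb-bs at 0.47, Hbb-bt at 0.46, Hba-a1 at 0.40, Hba-a2 at 0.27, Alas2 at 0.31, and Fech at -0.00582. With a library left out these ran from -0.54 to 0.26 (Hbb-bs), -0.57 to 0.33 (Hbb-bt), -0.58 to 0.19 (Hba-a1), -0.63 to 0.23 (Hba-a2), -0.59 to 0.23 (Alas2), and -0.00706 to 0.0386 (Fech), with Bpgm at -0.00225 to 0.0971 for the difference and Kel at -0.0379 to 0.89 in Cisplatin against Vehicle. Among mice without cisplatin, the r of Hbb-bs with Fech turned to -0.104 without the 2 farthest mice and with Bpgm to -0.0401 within the 300s. The cause of these changes was not tested.

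Replicate numbers did not pair samples: the correlation of same-numbered libraries had a median of 0.008 (-0.175 to 0.405, 31 pairs), and the own number was nearest in 19 of 62 cases. With a replicate block, Alas2 was at 3.35 in Cisplatin plus KW6002 against Cisplatin and at 3.45 for the difference. The count of members was then 1 in place of 0 in each, from which nothing is read, since they were chosen for low counts with cisplatin. In KW6002 against Vehicle under the block, Hbb-bs was at 0.0509 and Hbb-bt at 0.0378, and no other call on a member changed.

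With 0 to 9 reads a library after cisplatin, differences among treated groups were limited by counting, and a count of 0 allows up to 3 reads.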
